A study of Mus musculus with 16 samples.

Results

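The cytokine IL-33, the 2 chains of its receptor and the proteins that carry its signal into the cell were followed in mouse kidneys with and without ureteral obstruction. The members were 7 genes, Il33, Il1rl1, Il1rap, Myd88, Irak4, Irak1 and Traf6, taken by symbol from the 18132 genes of the deposited table. All 7 symbols were found, each with 1 intensity per array.

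Unilateral ureteral obstruction (UUO) closes a ureter, so that urine dams up and injures the kidney behind it. RNA of whole kidneys was hybridized to Illumina BeadChips, on which the brightness of a probe follows the amount of its transcript. The 16 arrays fell into 4 groups. Kidneys taken 24 h after UUO came from wildtype (WT) mice of the C57/BL6 strain (7 arrays) and from IL-33-deficient mice (5 arrays), whose strain was backcrossed to the same background per the study's methods. Untreated control kidneys came from WT mice (2 arrays) and IL-33-deficient mice (2 arrays). The UUO arrays belonged to 2 sets, of which set 1 held 3 WT and 2 IL-33-deficient arrays and set 2 held 4 and 3. The labels give no set for the controls, no age and no sex, and they do not say which stretch of the gene the IL-33-deficient mice lack. A change after UUO and a change between sets therefore cannot be told apart. Arrays are named below by the number in their label.

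IL-33 is a cytokine of the IL-1 family that is kept in the nucleus of barrier, endothelial and stromal cells and is released when they are damaged. Outside the cell it binds ST2, the product of Il1rl1, and the pair recruits IL1RAP, a chain shared with the receptors of other IL-1 cytokines. The inner domains of the receptor gather the adaptor MyD88, the kinases IRAK4 and IRAK1 and the ubiquitin ligase TRAF6, which lead to NF-kappa-B and MAP kinases. Toll-like receptors use the same adaptor, kinases and ligase, so that only Il33 and Il1rl1 are particular to this cytokine.

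Intensities in the table ran from 95.5 to 23471, and the median gene of an array had 132 to 133. The tubule markers Umod and Slc34a1, a check of the tissue, ran from 6666 to 15783 and from 4813 to 20877 over the 16 arrays, and Slc34a1 was among the tubule genes that fell after UUO in IL-33-deficient kidneys. The 5 injury markers Havcr1, Lcn2, Spp1, Krt18 and Krt19 summed to between 4945 and 6663 in the 4 controls and to between 19770 and 42414 in the 12 UUO kidneys. The 2 lowest UUO sums belonged to WT arrays of set 1, with 19770 on array 3820 and 27645 on array 3818. Differences are given as log2 fold changes from limma with their standard error (SE) and with p-values adjusted over all 18132 genes. The number of arrays limits the precision, above all that of the 2 controls per genotype. In whole kidneys, fewer cells of a type and less RNA per cell cannot be told apart.

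In WT kidneys after UUO and between genotypes, Il33 was the member with the largest difference. In WT kidneys it rose 2.70-fold after UUO, and in IL-33-deficient kidneys it stayed at a low intensity with or without UUO. WT controls measured 197 and 259. WT kidneys after UUO measured 335, 551 and 762 in set 1 and 644, 696, 703 and 706 in set 2. IL-33-deficient kidneys measured 115 and 118 as controls and 112, 118, 118, 118 and 129 after UUO. All 9 WT arrays lay above all 7 IL-33-deficient arrays, and the 7 WT arrays after UUO lay above both WT controls. All 7 IL-33-deficient arrays lay below the median gene of their array, so the labels of genotype and the intensities of the targeted gene ran the same way on 16 of 16 arrays. An intensity this low is close to the floor of the table, which has no true zero and carries no detection p-value, and the fold changes are compressed by that floor. In an alternative run the background was taken as the lowest intensity of each array and subtracted, with 16 added before the log2. The difference of Il33 between genotypes after UUO was then -3.78 on the log2 scale in place of -2.36. That between controls was -1.99 in place of -0.95, and the rise in WT kidneys was 1.86 in place of 1.43. For intensities this low, the size of these values depends on the constant added.

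RefSeq lists 2 transcript starts for Il33. The 250 bases before each are shown because Il33 and Myd88 were the members that rose in WT kidneys. The windows are given 5′ to 3′ on the strand of the gene in GRCm38.p6, chr19:29924863-29925112 (plus strand) for the upstream start and chr19:29945540-29945789 (plus strand) for the downstream start. Capitals mark matches to any of 5 motifs searched on both strands.
Il33, upstream start: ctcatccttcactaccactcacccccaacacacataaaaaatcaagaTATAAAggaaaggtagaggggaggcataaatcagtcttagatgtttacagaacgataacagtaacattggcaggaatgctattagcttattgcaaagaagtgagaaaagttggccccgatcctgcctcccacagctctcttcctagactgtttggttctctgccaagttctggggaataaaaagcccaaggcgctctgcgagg
Il33, downstream start: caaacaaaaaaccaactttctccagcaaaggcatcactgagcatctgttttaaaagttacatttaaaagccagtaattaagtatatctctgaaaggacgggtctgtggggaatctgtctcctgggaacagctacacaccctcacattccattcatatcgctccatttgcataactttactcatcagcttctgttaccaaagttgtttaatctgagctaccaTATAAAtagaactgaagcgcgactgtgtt
The motifs were the interferon-stimulated response element (GAAA, then 2 bases of any kind, then GAAA), found in 2.98% of 32851 windows of this length before RefSeq starts, the NF-kappa-B consensus (3.9%), the AP-1 consensus TGANTCA (6.75%), the STAT consensus (TTC, then 3 bases of any kind, then GAA, 7.02%) and the TATA box TATAAA (12.4%). Both Il33 windows matched the TATA box alone, at position -203 before the upstream start and at -29 before the downstream start. A match of letters is a description of the window and not a binding site.

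The rise of Il33 in WT kidneys was 1.43 on the log2 scale (SE 0.22, adjusted p = 0.000823, 7 against 2 arrays). It was 1.20 with the UUO arrays of set 1 alone (adjusted p = 0.112) and 1.60 with those of set 2 alone (adjusted p = 2.37e-07). In IL-33-deficient kidneys the difference was 0.03, with a 95% interval from -0.47 to 0.52. Between genotypes after UUO it was -2.36 (SE 0.17, adjusted p = 9.55e-05), with -2.18 in set 1 (adjusted p = 0.736) and -2.50 in set 2 (adjusted p = 3.70e-08). Between control kidneys the log2 means were 7.82 ± 0.28 in WT and 6.87 ± 0.02 in IL-33-deficient mice (SD, n = 2 each). That difference of -0.95 (SE 0.28) did not pass the adjusted test (adjusted p = 1.00, unadjusted p = 0.00367).

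Il33 is the gene targeted in these mice, so a lack of its response in IL-33-deficient kidneys was set by the design. The responses of Il33 in the 2 genotypes differed by -1.41 (SE 0.32), which did not pass the adjusted test with all 16 arrays (adjusted p = 0.899, unadjusted p = 0.000553). Without WT UUO array 3818 the difference was -1.55 and passed (adjusted p = 0.00209). With the UUO arrays of set 2 alone it was also -1.55 (adjusted p = 0.000894), and without arrays 3818 and 3820, a choice made after the data were seen, it was -1.61 (adjusted p = 8.44e-05). These 2 arrays had both the lowest Il33 intensities and the lowest injury sums of the WT kidneys after UUO, and the part of injury in the level of Il33 was not tested. Over the 9 WT arrays the 5 genes whose log2 intensity followed Il33 most closely were Cebpb, a transcription factor of the acute response (r = 0.987), Nrg1, a ligand of ErbB receptors (r = 0.985), Mboat1 (r = 0.983), Socs2, a suppressor of cytokine signalling (r = 0.983), and TMEM49 (r = 0.982). Since all these points share the step from control to UUO, r was also taken over deviations from the group means, where it lay between 0.932 for Socs2 and 0.965 for Nrg1. Array 3818, at 8.39 against a mean of 9.25 for WT kidneys after UUO, lay farthest from its group mean in Il33. The r over deviations therefore leans on this array, and r without it was not computed. The 5 genes were also picked from all genes on these same arrays. These values are descriptions over 9 arrays.

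**Figure D1:**
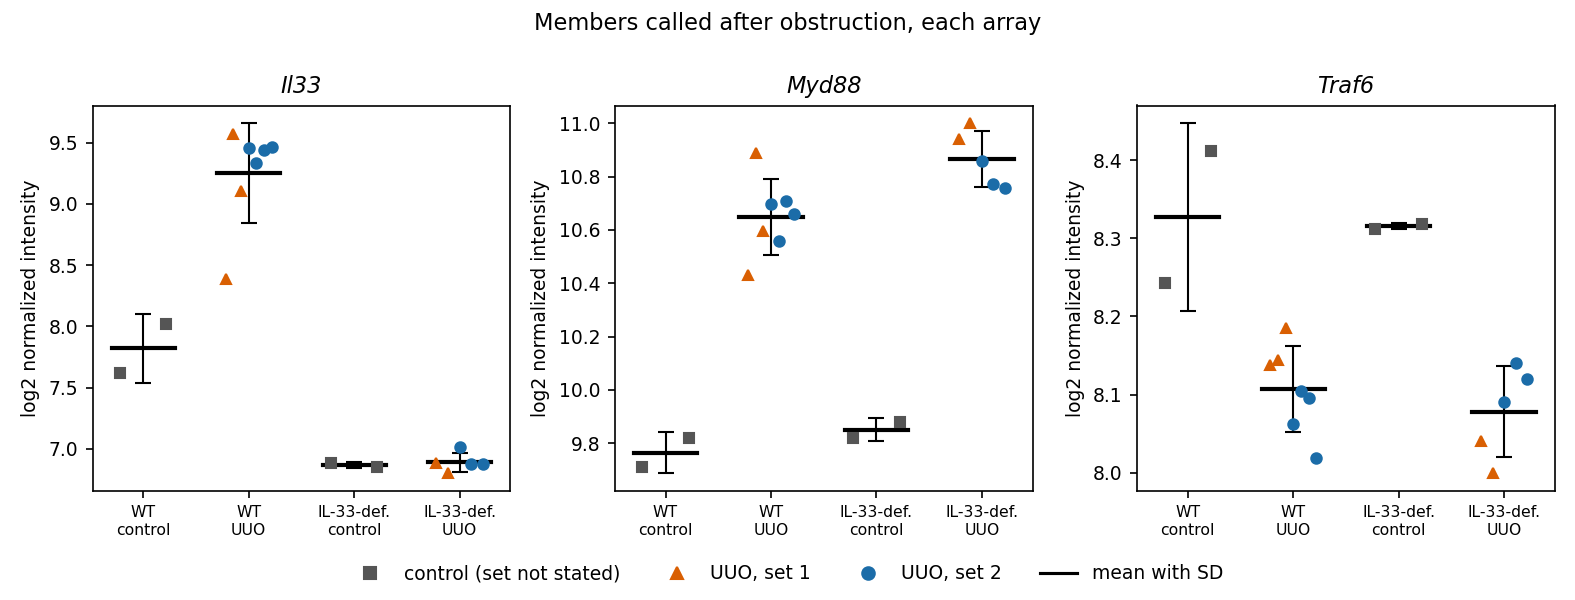
Log2 normalized intensity of Il33, Myd88 and Traf6 on each of the 16 arrays in the 4 groups; squares are controls, triangles UUO arrays of set 1, circles UUO arrays of set 2, and bars the mean with SD. Il33 was high in WT kidneys alone, with array 3818 the lowest WT array after UUO at 8.39, Myd88 rose in both genotypes, and Traf6 was lower after UUO in both; each panel has its own range of the axis.

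The receptor chains showed no change that passed a test. Il1rl1, which encodes ST2, measured 115 and 119 in WT controls and 116 to 129 in WT kidneys after UUO (median 123). In IL-33-deficient mice it measured 113 and 126 in controls and 118 to 125 after UUO (median 122). The groups overlapped in every comparison, and the widest group was the pair of IL-33-deficient controls. The difference after UUO was 0.08 in WT kidneys (95% interval from -0.02 to 0.18) and 0.04 in IL-33-deficient kidneys (from -0.07 to 0.14). Between genotypes after UUO it was -0.02 (from -0.08 to 0.05).

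Il1rap, the shared chain, was as narrow, at 120 and 123 in WT controls, 117 to 121 in WT kidneys after UUO, 119 and 124 in IL-33-deficient controls and 119 to 122 in IL-33-deficient kidneys after UUO. All groups overlapped. Its difference after UUO was -0.02 in WT kidneys (95% interval from -0.08 to 0.05) and -0.01 in IL-33-deficient kidneys (from -0.07 to 0.06), and between genotypes after UUO it was 0.01 (from -0.03 to 0.06). Both receptor chains lay below the median gene on 16 of 16 arrays, so that their intensities may hold little but background, and the intervals bound the measured intensity and not the amount of transcript. With 1 intensity per gene, the soluble and the membrane form of ST2, both made from Il1rl1, could not be told apart. The 5 genes most like Il1rl1 over the 16 arrays were Ccne2 (r = 0.828), MOR253-5 (r = 0.823), Dysf (r = 0.814), Otud7b (r = 0.807) and Gdpd3 (r = 0.793). For a gene this dim such values are descriptions only.

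Cells known to carry ST2 were looked for by their markers. Beside the counts below, 15.2% of all genes were called after UUO in WT and 21.8% in IL-33-deficient kidneys. Of 8 markers of mast cells and basophils, Cpa3 and Fcer1a among them, 0 changed after UUO in either genotype by limma (0 also at an unadjusted p under 0.05), and all but Fcer1a lay below the median gene on every array. The summed level of this list ran from 910 to 968 over the 16 arrays. Of 7 markers of group 2 innate lymphoid cells, Gata3 fell in WT kidneys (-0.47, SE 0.10, adjusted p = 0.00523) and in IL-33-deficient kidneys (-0.31, SE 0.10, adjusted p = 0.0429), and Thy1 rose in IL-33-deficient kidneys (0.37, adjusted p = 0.0344). Gata3 is also made by kidney tubules, and Il7r, a defining receptor of these lymphoid cells, measured 117 to 126 over all groups. In whole kidneys the cells that made Thy1 cannot be told. The calls of Gata3 and Thy1 were not run through the leave-outs. Of 7 lymphocyte markers 0 changed in either genotype by limma, with 1 at an unadjusted p under 0.05 in WT and 0 in IL-33-deficient kidneys.

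Myd88, the adaptor that binds the activated receptor, rose in both genotypes. WT controls measured 838 and 903, and WT kidneys after UUO measured 1381 to 1894 (median 1616). IL-33-deficient controls measured 904 and 942, and IL-33-deficient kidneys after UUO measured 1730, 1750, 1857, 1967 and 2049. In each genotype the arrays after UUO lay above both controls. The rise was 0.88 in WT kidneys (SE 0.09, 1.85-fold, adjusted p = 4.47e-05) and 1.02 in IL-33-deficient kidneys (SE 0.09, 2.02-fold, adjusted p = 8.71e-06). The responses differed by 0.13, with a 95% interval from -0.15 to 0.41 and an adjusted p of 0.976. By p-value Myd88 ranked 33 and 48 among the 18132 genes in these 2 comparisons, where Il33 ranked 262 in WT kidneys.

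After UUO, Myd88 was higher in IL-33-deficient than in WT kidneys by 0.22 (SE 0.07), which did not pass the adjusted test (adjusted p = 0.331, unadjusted p = 0.00842). WT array 3819, with 1894, was the only WT array after UUO above the lowest IL-33-deficient one. Within sets the genotypes did not overlap, with 1381 to 1894 against 1967 and 2049 in set 1 and 1510 to 1672 against 1730 to 1857 in set 2. That pattern, the same direction without overlap in both sets, was met by Il33 (lower) and Myd88 (higher) among the members and by 2.11% of all genes. The difference was 0.33 in set 1 (adjusted p = 0.736) and 0.14 in set 2 (adjusted p = 0.385), and with the set as a block it was 0.22 (adjusted p = 0.312). Before UUO it was 0.09 (SE 0.11, adjusted p = 1.00).

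The window before the single RefSeq start of Myd88, chr9:119340019-119340268 (minus strand, GRCm38.p6), is shown in the same way.
Myd88: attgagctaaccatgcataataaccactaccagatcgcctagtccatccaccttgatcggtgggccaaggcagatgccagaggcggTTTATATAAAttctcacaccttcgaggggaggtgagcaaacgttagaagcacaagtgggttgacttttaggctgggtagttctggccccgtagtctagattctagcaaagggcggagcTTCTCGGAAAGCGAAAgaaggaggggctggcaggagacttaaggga
It held matches to 3 of the 5 motifs. The interferon-stimulated response element lay at position -40 and overlapped the STAT consensus at -46, and the TATA box matched at -164 and -160, on opposite strands and overlapping. The NF-kappa-B and AP-1 consensus letters were not in this window. The windows of Il1rl1, Il1rap, Irak4, Irak1 and Traf6 held 0 matches to the 5 motifs, which says nothing of sites elsewhere.

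Irak4, the kinase that MyD88 binds first, measured 145 and 147 in WT controls, 148 to 164 in WT kidneys after UUO (median 153), 136 and 142 in IL-33-deficient controls and 146 to 156 in IL-33-deficient kidneys after UUO (median 150). The arrays after UUO lay above the controls in each genotype. The differences were 0.09 in WT kidneys (SE 0.04, adjusted p = 0.176) and 0.11 in IL-33-deficient kidneys (SE 0.04, adjusted p = 0.0675), and neither passed. Irak4 lay at percentile 52.1 to 61.2 of its arrays, little above the median gene, so its fold changes may be compressed by the floor. Over the alternative runs the differences reached 0.18 in WT and 0.25 in IL-33-deficient kidneys. In IL-33-deficient kidneys the test passed with array weights (adjusted p = 0.0465) and without WT UUO array 3820, which enters through the shared spread (adjusted p = 0.0462).

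Irak1, the kinase that IRAK4 activates, measured 142 and 144 in WT controls and 141 to 159 in WT kidneys after UUO (median 150). It measured 135 and 165 in IL-33-deficient controls and 148 to 169 in IL-33-deficient kidneys after UUO (median 167). The groups overlapped, and the IL-33-deficient controls lay farther apart than the WT controls. Irak1 too lay little above the median gene, at percentile 51.5 to 62.2 of its arrays, so its fold changes may be compressed by the floor. The differences after UUO were 0.06 in WT kidneys (95% interval from -0.08 to 0.21) and 0.12 in IL-33-deficient kidneys (from -0.03 to 0.27), the latter rising to 0.26 and passing the test without IL-33-deficient control 3813 (adjusted p = 0.0324) and falling to -0.02 without control 3814. Between genotypes after UUO the difference was 0.11 (SE 0.04), which did not pass (adjusted p = 0.382, unadjusted p = 0.0168).

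Traf6, the ubiquitin ligase at the end of the chain, was slightly lower after UUO in both genotypes. WT controls measured 303 and 341, and WT kidneys after UUO measured 259 to 291 (median 275). IL-33-deficient controls measured 318 and 319, and IL-33-deficient kidneys after UUO measured 256, 263, 273, 278 and 282. In both genotypes every array after UUO lay below both controls. The change was -0.22 in WT kidneys (SE 0.05, adjusted p = 0.00936) and -0.24 in IL-33-deficient kidneys (SE 0.05, adjusted p = 0.00458), which is 0.858 and 0.848 times the control level. The WT call rested on control 3812, without which the change was -0.14 (adjusted p = 0.256). It was -0.17 with the UUO arrays of set 1 alone (adjusted p = 0.193) and -0.30 after subtraction of the background (adjusted p = 0.0501). Between genotypes the difference was -0.03 after UUO and -0.01 in controls, and neither passed (adjusted p = 0.843 and 1.00).

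**Figure D2:**
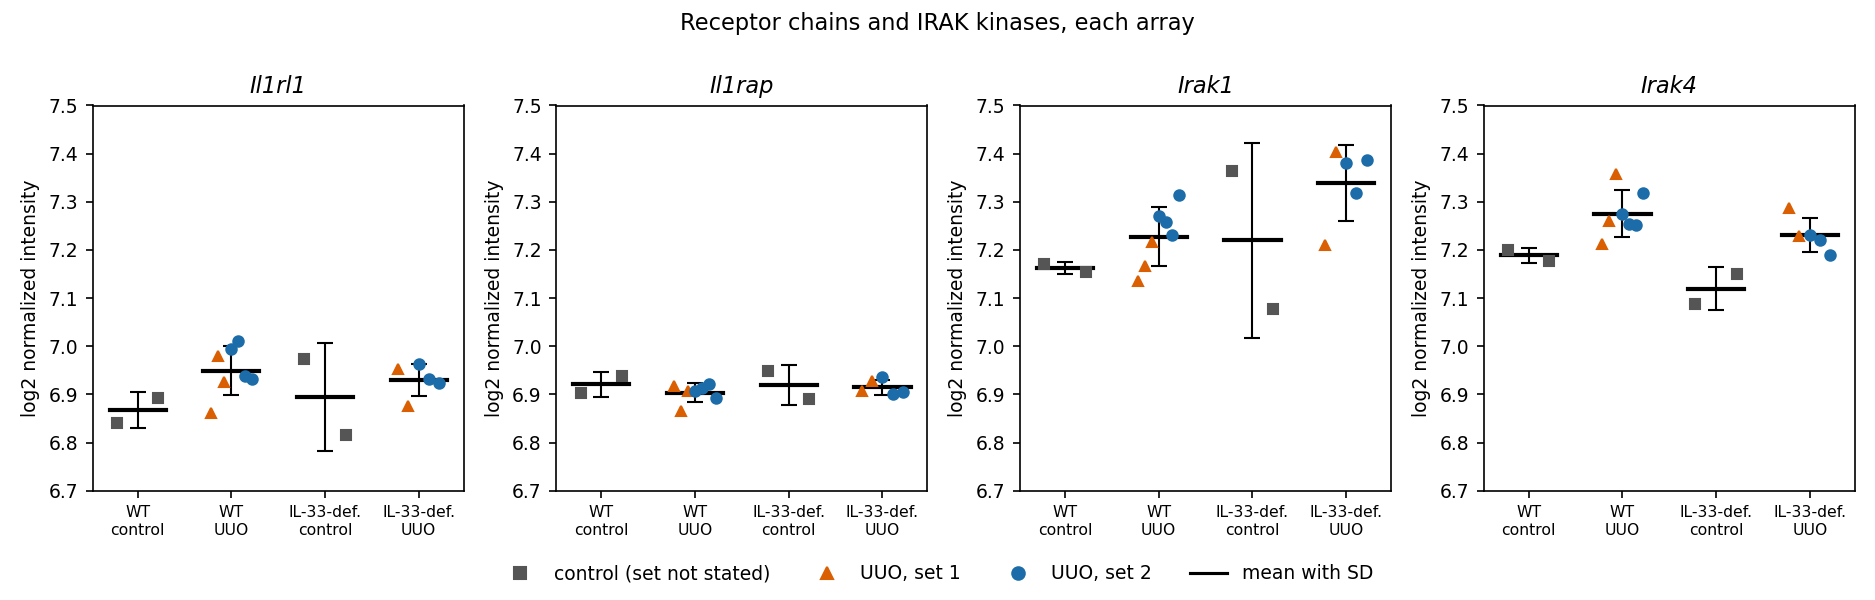
Log2 normalized intensity of Il1rl1, Il1rap, Irak1 and Irak4 on each of the 16 arrays, on 1 shared axis range; symbols and bars as in the plot of Il33, Myd88 and Traf6. The groups of Il1rl1 and Il1rap overlapped throughout, the 2 IL-33-deficient controls of Irak1 lay at 7.08 and 7.36, and Irak4 was above its controls after UUO by 0.09 and 0.11, which did not pass the test.

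Counted over the chain, 3 of 7 members changed after UUO in WT kidneys, with Il33 and Myd88 higher and Traf6 lower, where 15.2% of all genes were called (6.97% higher and 8.22% lower). In IL-33-deficient kidneys 2 of 7 changed, Myd88 higher and Traf6 lower, against 21.8% of all genes (10.6% higher and 11.2% lower). Between genotypes after UUO the thresholds given by the study (unadjusted p under 0.05, adjusted p under 0.25, fold change over 1.3) called Il33 alone among the members, against 0.0110% of all genes (0.00552% in each direction). At an adjusted p under 0.05 Il33 was the single gene called, which is 0.00552% of all genes. Il33 is the gene targeted in these mice, so its call was set by the design, and no other member was called. Neither the control kidneys nor the responses of the 2 genotypes differed for any member by limma (0 of 7 each, with Il33 at an unadjusted p under 0.05 in both), where 0 of 18132 genes were called in either.

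By overlap of the arrays, 4 of 7 members were apart between UUO and control in WT kidneys (Il33, Myd88, Irak4 and Traf6) against 21.4% of all genes, and 3 of 7 in IL-33-deficient kidneys (Myd88, Irak4 and Traf6) against 35.0%. Between genotypes the targeted gene Il33 alone was apart after UUO, against 0.756% of all genes. Between the control pairs Il33, Myd88 and Irak4 were apart, against 34.0%. The median log2 difference of the 7 members was 0.08 in WT and 0.04 in IL-33-deficient kidneys after UUO, beside medians of -0.000759 and -0.000570 for all genes. In both genotypes the median member was Il1rl1, which passed no test and lay below the median gene on every array.

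**Figure D3:**
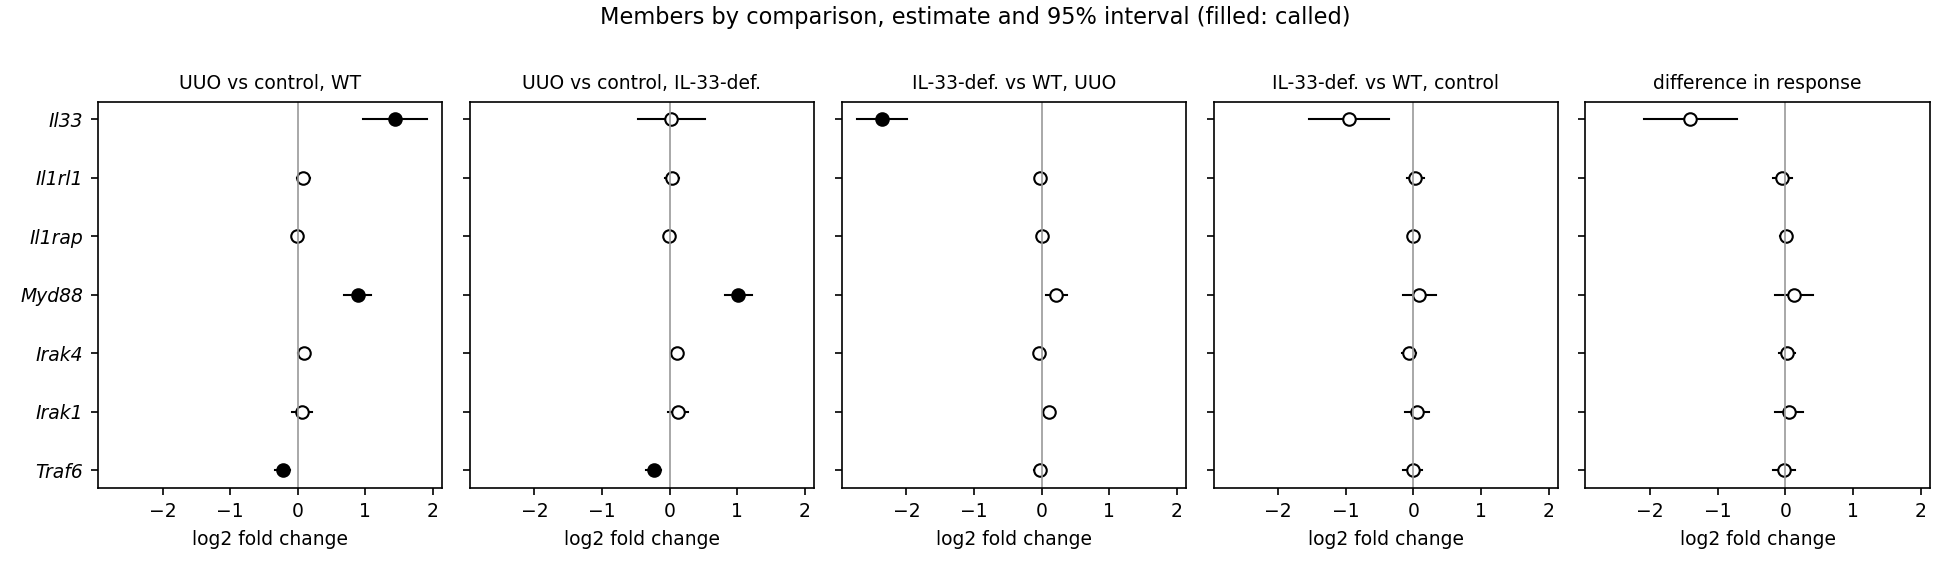
Log2 fold change of each member (point) with its 95% interval (line) in the 5 comparisons, from limma; filled points passed the test of that comparison. Il33 and Myd88 rose and Traf6 was lower after UUO in WT kidneys, and Myd88 and Traf6 repeat this in IL-33-deficient kidneys. In the comparisons of genotypes the sole filled point is the targeted gene Il33 after UUO, at -2.36.

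The wider pathway was read from 6 lists of 74 genes, of which 69 were in the table. After UUO 14 of the 69 changed in WT kidneys (20.3%, 10 higher and 4 lower) and 23 in IL-33-deficient kidneys (33.3%, 18 higher and 5 lower), beside the 15.2% and 21.8% of all genes. Without WT control 3811 or 3812 the WT count was 4 and 3, without IL-33-deficient control 3813 or 3814 the other count was 13 and 14, and without WT UUO arrays 3818 and 3820 the WT count was 24. Between genotypes after UUO, between controls and between the responses 0 of 69 passed by limma, with 9, 1 and 2 at an unadjusted p under 0.05. Without WT UUO array 3819, 2 of the 69 passed between genotypes after UUO. A gene called in 1 genotype and not in the other was therefore not shown to respond differently.

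Among NF-kappa-B subunits and their feedback genes, 6 of 12 rose in WT kidneys and 8 of 12 in IL-33-deficient kidneys, beside 6.97% and 10.6% of all genes. Nfkbiz, an inducible nuclear partner of NF-kappa-B, measured 258 and 322 in WT controls and 411 to 1190 in WT kidneys after UUO (median 882). It measured 234 and 312 in IL-33-deficient controls and 848 to 989 after UUO (median 953). The groups did not overlap in either genotype, and the changes were 1.50 (SE 0.26, adjusted p = 0.00152) and 1.80 (SE 0.27, adjusted p = 0.000244). With the UUO arrays of set 1 alone the WT change of Nfkbiz was 1.39 and did not pass (adjusted p = 0.143). Nfkb1 rose by 0.76 in WT and 1.17 in IL-33-deficient kidneys, Rela by 0.74 and 0.96, and Relb by 0.65 and 0.79 (adjusted p = 0.021 to 0.0358 in WT and 0.00234 to 0.00651 in IL-33-deficient kidneys). These 3 genes encode DNA-binding subunits. With the UUO arrays of set 1 alone they did not pass in WT kidneys (adjusted p from 0.367 to 0.390). The same held in IL-33-deficient kidneys (0.0515 to 0.0781). With WT arrays alone they did not pass in WT kidneys (0.0823 to 0.123). None of the 3 passed in WT kidneys when control 3811 or 3812 was left out (adjusted p from 0.101 to 0.242), nor did Nfkb1 without array 3892, 3894 or 3895 (0.0532 to 0.0602). In IL-33-deficient kidneys Rela and Relb did not pass without control 3814 (0.0686 and 0.0828).

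Of the products made by cells that IL-33 stimulates, 3 of 18 rose in WT and 4 of 18 in IL-33-deficient kidneys. Of all genes, 6.97% and 10.6% were called higher, and 15.2% and 21.8% in either direction. Cxcl1, a chemokine for neutrophils, measured 155 and 182 in WT controls and 1056 to 3932 in WT kidneys after UUO (median 1780), and 140 and 156 in IL-33-deficient controls and 1236 to 2360 after UUO (median 1916). Its rise was 3.57 (SE 0.37, adjusted p = 5.05e-05) in the former and 3.65 (SE 0.39, adjusted p = 2.30e-05) in the latter. Areg, an epidermal growth factor receptor ligand, rose by 0.95 and 1.10 (adjusted p = 0.0397 and 0.0158). Chil3, a chitinase-like protein of macrophages, rose by 0.84 and 1.16 (adjusted p = 0.0163 and 0.00171). Ccl2, a chemokine for monocytes, rose in IL-33-deficient kidneys (0.51, adjusted p = 0.00442) and differed by 0.27 in WT kidneys (adjusted p = 0.118, but 0.0219 without array 3818). In WT kidneys Chil3 did not pass without control 3811 or 3812 (adjusted p = 0.121 and 0.135), nor did Areg (0.179 and 0.245), which also missed in 6 other leave-outs at 0.0513 to 0.0648 (controls 3813 and 3814 and arrays 3892 to 3895). In IL-33-deficient kidneys Areg did not pass without control 3813 or 3814 (0.102 and 0.0991). With the UUO arrays of set 1 alone, Areg and Chil3 passed in neither genotype (adjusted p from 0.0756 to 0.282). Ccl2 then did not pass in IL-33-deficient kidneys (0.0996). With WT arrays alone, Areg and Chil3 did not pass in WT kidneys (0.0695 and 0.0525). In controls 14 of the 18 products in WT and 16 of the 18 in IL-33-deficient mice lay below the median gene on both arrays.

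Of all genes, 6.97% rose after UUO in WT and 10.6% in IL-33-deficient kidneys. Of 8 other ligands of the IL-1 family, 0 rose in WT kidneys by limma (2 at an unadjusted p under 0.05) and 3 rose in IL-33-deficient kidneys. They were Il1b (0.82, adjusted p = 0.0322), Il36a (0.41, adjusted p = 0.0147) and Il1rn, the receptor antagonist (0.25, adjusted p = 0.0268). In IL-33-deficient kidneys Il36a measured 112 and 120 in controls and 130 to 165 after UUO. Il1rn measured 113 and 113 in these controls and 122 to 141 after UUO. Both genes lay near the floor, so the size of their changes depends on the treatment of background. With the UUO arrays of set 1 alone none of the 3 passed there (adjusted p from 0.155 to 0.337). In WT kidneys the same genes differed by 0.48, 0.23 and 0.21 (adjusted p = 0.251, 0.182 and 0.0701), and Il1b overlapped its controls, at 144 to 364 after UUO against 145 and 160. All 3 calls were lost without either IL-33-deficient control (adjusted p from 0.0611 to 0.156), and those of Il1b and Il1rn without array 3897 or 3898 (0.0531 to 0.0652), while Il1rn passed in WT kidneys without array 3818 or 3820 (0.0132 and 0.0343). Of 7 other receptors and decoys of the family, 0 passed in either genotype (1 in each at an unadjusted p under 0.05). Of 6 Toll-like receptors that use MyD88, Tlr2 passed, in IL-33-deficient kidneys alone (0.83, SE 0.16, adjusted p = 0.00139), beside 0.43 in WT kidneys (SE 0.15, adjusted p = 0.0739, but 0.0221 without array 3818 and 0.0244 without array 3820). With the UUO arrays of set 1 alone the rise of Tlr2 in IL-33-deficient kidneys did not pass (adjusted p = 0.0759). Its arrays after UUO, 187 to 334 in WT and 291 to 323 in IL-33-deficient mice, lay above the controls at 178 and 178 and at 169 and 173.

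Of 18 adaptors, kinases and ligases beside the members, 1 rose and 4 fell in WT kidneys and 2 rose and 5 fell in IL-33-deficient kidneys. Of all genes, 6.97% rose and 8.22% fell in the former, and 10.6% rose and 11.2% fell in the latter. Peli2, a ubiquitin ligase that acts on IRAK kinases, measured 250 and 266 in WT controls and 158 to 206 after UUO, and 267 and 285 in IL-33-deficient controls and 153 to 175 after UUO. It fell by 0.57 on the log2 scale in WT kidneys (SE 0.08, adjusted p = 0.000678) and by 0.73 in IL-33-deficient kidneys (SE 0.09, adjusted p = 5.95e-05), without overlap of the groups. The MAP kinases Mapk14 (-0.40 and -0.56) and Mapk8 (-0.36 and -0.51) also fell in both genotypes (adjusted p = 0.0155 and 0.00155, and 0.0387 and 0.00437). Tab1, a partner of the kinase TAK1, fell in WT kidneys (-0.41, adjusted p = 0.021) and differed by -0.31 in IL-33-deficient kidneys (adjusted p = 0.0741, but 0.0137 without WT array 3818). Mapk14, Mapk8 and Tab1 did not pass in WT kidneys with the UUO arrays of set 1 alone (adjusted p from 0.208 to 0.276). With WT arrays alone they did not pass either (0.0551 to 0.101). In WT kidneys Mapk8 and Tab1 did not pass without control 3811 or 3812 (adjusted p from 0.101 to 0.263), Mapk8 also not without array 3819, 3892, 3894, 3895 or 3898 (0.0505 to 0.0648), and Mapk14 not without control 3812 (0.288). In IL-33-deficient kidneys Mapk8 did not pass without control 3813 (0.0522).

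**Figure D4:**
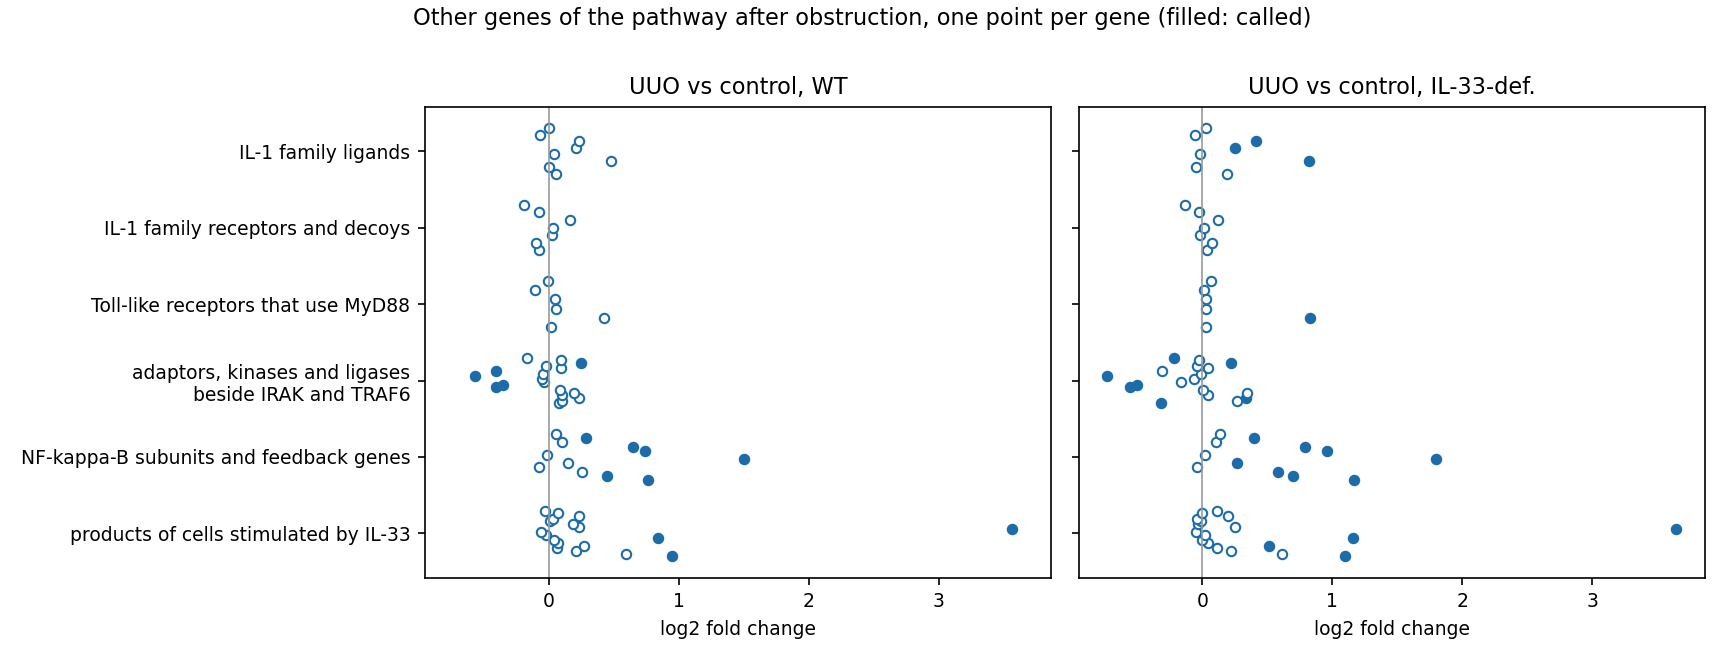
Log2 fold change after UUO in WT (left) and IL-33-deficient (right) kidneys of the 69 genes in 6 lists around the chain, 1 point per gene; filled points passed the test. Filled points lay to the right of 0 among NF-kappa-B genes and products of stimulated cells, with Cxcl1 farthest at 3.57 and 3.65, and on both sides of 0 among adaptors, kinases and ligases.

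Markers of some cells of the kidney also changed after UUO. Beside the counts below, 6.97% of all genes rose and 8.22% fell after UUO in WT kidneys. In IL-33-deficient kidneys 10.6% rose and 11.2% fell. Of 8 tubule and glomerulus markers 0 rose and 4 fell after UUO in each genotype. Slc12a1, the salt transporter of the thick ascending limb, fell in WT (-3.12, adjusted p = 0.00319) and in IL-33-deficient kidneys (-3.13, adjusted p = 0.00223). Aqp2, the water channel of the collecting duct, also fell in both (-1.08 and -1.42), Slc12a3 fell in WT (-0.63, adjusted p = 0.00833) and Slc34a1 in IL-33-deficient kidneys (-1.52, adjusted p = 0.00312). The sum of the 8 ran from 52816 to 57432 in the 4 controls, from 31868 to 54701 in WT kidneys and from 29256 to 35775 in IL-33-deficient kidneys after UUO. Of 8 fibroblast, pericyte and myofibroblast markers, 5 rose in WT and 6 in IL-33-deficient kidneys after UUO, and their sum ran from 3294 to 3725 in the 4 controls, from 3343 to 5204 in WT kidneys after UUO and from 5514 to 6488 in IL-33-deficient kidneys after UUO. Acta2, the smooth muscle actin of myofibroblasts, was the other gene of the table called between genotypes after UUO (0.67, SE 0.11, adjusted p = 0.233 by limma at the study's thresholds). With the set as a block, and in 8 of 12 leave-outs of a UUO array, Il33 was the single gene called there, so the call of Acta2 was lost. Of 8 markers of leukocytes and myeloid cells, 2 rose and 1 fell in WT kidneys and 4 rose and 1 fell in IL-33-deficient kidneys, and their sum ran from 1367 to 1941 in controls, 1883 to 4065 in WT kidneys and 2679 to 4652 in IL-33-deficient kidneys after UUO. Of 6 endothelial markers, 0 changed in WT kidneys by limma (1 at an unadjusted p under 0.05) and Tek fell in IL-33-deficient kidneys (-0.35, adjusted p = 0.0267). Apart from that of Acta2, the calls of these markers were not run through the leave-outs. The part of these cells in the changes of Il33, Myd88, Traf6 and the pathway genes was not tested.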

How the data were processed

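Biotin-labelled RNA of 16 mouse kidneys was measured on Illumina MouseRef-8 v2 BeadChips. The submitters' processing notes name BeadStudio 2, and the study's methods name the beadarray package. The authors deposited linear intensities, 1 per gene symbol, for 18132 genes with no missing value. How they corrected background, normalized, and joined the probes of a gene is not given in the sources used here. Arrays held nearly the same values rank by rank (median spread 0.706%). Their distributions had therefore been made alike before deposit, as quantile normalization does. No 2 arrays were identical. The labels do not say whether each array came from a separate mouse, so p-values measure the spread between arrays.

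These intensities were quantile-normalized and log2-transformed. Tests used limma 3.58.1 in R 4.3.3 (lmFit, eBayes), and the p-values of all 18132 genes were adjusted by the Benjamini-Hochberg method. Genotypes after UUO were compared over the 12 UUO arrays at the thresholds given by the study, with all 7 WT arrays since those it used are not named. The other 4 comparisons came from 1 model with 4 group means over 16 arrays, at an adjusted p under 0.05. The scripts were tested on simulated data.

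The 7 members, 6 pathway lists and 8 marker lists (57 of 61 markers in the table) were chosen with earlier results of these data known. Of each pathway list, at most 4 genes called after UUO are named, those with the largest change in WT kidneys. The genes most like Il33 and Il1rl1 had the highest Pearson r. Promoter windows came from the RefSeq annotation of GRCm38.p6 and were searched in Python 3.11.15. Protein sequences were not used here. The values of a kidney marker counted in its list are not reported here.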

Additional observations from a re-analysis of the deposited data

Results flagged for a closer look

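Array 3818, a WT kidney of set 1 after UUO, had an Il33 intensity of 335 (8.39 on the log2 scale), far below the other 6 WT kidneys after UUO. Its gap to the next array was a share of 0.605 of the range of the group, past the limit of Dixon's test for 7 arrays. Of the 14 groups of member intensities tested in this way it was the single one past the limit. Chance passes the limit in about 1 of 20 groups, so a single flag among 14 may be chance. The same array had the lowest Myd88 intensity of its group, 1381, and the group's lowest but one sum of injury markers, 27645. Leaving it out moved the rise of Il33 in WT kidneys from 1.43 to 1.58. The part of injury or of the array itself in this value was not tested.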

How the results depend on the processing

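The calls of Myd88 after UUO, in both genotypes, and of Traf6 in IL-33-deficient kidneys held under every alternative and leave-out run. Il33 was called between genotypes after UUO in all but 1 of 12 alternatives: with set 1 alone 0 members passed. With the UUO arrays of set 1 alone 1 member, Myd88, passed in WT kidneys. For the difference in response 1 member, Il33, passed with the UUO arrays of set 2 alone and without arrays 3818 and 3820, and over the leave-outs the count was 0 to 1 (1 without array 3818). The causes were not tested, and set 1 alone has fewer arrays.

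Signs turned for differences near 0 that passed no test. Traf6 between genotypes after UUO was 0.047 in set 2 alone. Il1rap in IL-33-deficient kidneys was 0.000569 with median centring, and Il33 there was -0.025 with set 1 alone. Traf6 between controls was 0.000830 on the values as deposited, and its difference in response was 0.00518 with array weights, 0.058 with set 2 alone and 0.00490 without arrays 3818 and 3820. Over the leave-outs, Il1rap in WT kidneys after UUO ran from -0.035 to 0.000754. In IL-33-deficient kidneys after UUO, Il33 ran from -0.00589 to 0.048, Il1rl1 from -0.044 to 0.11, Il1rap from -0.034 to 0.024 and Irak1 from -0.023 to 0.26. Between controls, Il1rl1 ran from -0.053 to 0.11, Il1rap from -0.030 to 0.028, Irak1 from -0.085 to 0.20 and Traf6 from -0.097 to 0.073. For the difference in response, Il1rl1 ran from -0.13 to 0.033, Il1rap from -0.017 to 0.041, Irak1 from -0.088 to 0.20, Irak4 from -0.00649 to 0.056 and Traf6 from -0.10 to 0.068.

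Over all genes, the 2 calls between genotypes after UUO became 80 with array weights, 168 among the brighter genes, 127 with 4 group means, 81 in set 2 alone, 43 without arrays 3818 and 3820, 1 with the set as a block or at an adjusted p under 0.05, 0 in set 1 alone and 1 to 309 over the leave-outs (309 without array 3819). The 2754 calls after UUO in WT kidneys became 188 with set 1 alone, 4241 with set 2 alone, 1778 with WT arrays alone and 809 to 3578 over the leave-outs (809 without control 3812), and the 3955 in IL-33-deficient kidneys became 2258 with set 1 alone and 2276 to 4294 over the leave-outs (2276 without control 3813). For the difference in response 2 genes were called with set 2 alone. The 14 pathway genes called in WT kidneys became 22 with array weights or set 2 alone, 2 with set 1 alone and 5 with WT arrays alone, and the 23 in IL-33-deficient kidneys became 12 with set 1 alone.

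Where a leave-out left 1 control, that array was taken to vary like the other groups. Il1rl1 and Il1rap gave no value among the brighter genes. No paired analysis was possible because the groups share no replicate numbers.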
